A study of Mus musculus with 12 samples.

Results

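RNA sequencing followed immortalised mouse preadipocytes with an intact Acly gene as they turned into adipocytes. Acly encodes ATP citrate lyase, which splits citrate outside mitochondria and so supplies the acetyl-CoA from which fatty acids and cholesterol are built. The cells came from adipose tissue of C57Bl/6 mice, were immortalised with SV40, and carried the genotype Aclyf/f, in which Acly is flanked by loxP sites but not deleted. On day 0 the confluent cells were sampled as preadipocytes (3 libraries), and on day 4 as adipocytes, 4 days after induction with an adipogenic cocktail that contained rosiglitazone, a drug that activates PPAR gamma (3 libraries). These 6 libraries are members of a series of 12, of which the other 6 are Acly-/- cells sampled at the same points. They were chosen by genotype and day alone, and no measured value entered the choice. The preadipocytes had not received the cocktail, so time, cocktail and the change of cell state cannot be told apart, and the labels do not say whether the 3 libraries of a group are separate cultures. The p-values therefore measure only the spread among libraries of a group, estimated over all 12 libraries of the series.

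Adipogenesis is driven by a cascade of transcription factors. C/EBP beta and C/EBP delta act early, and they raise PPAR gamma and C/EBP alpha, which sustain each other and switch on the genes for fat uptake, fat synthesis, lipid droplets and insulin response. In the same period the cell gives up much of the fibroblast programme, with its stress fibres, fibrillar matrix and chemokines.

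Levels are FPKM, which count sequenced fragments relative to transcript length and library size, so they can be set side by side between genes. A value of 0.01 is the lowest listed in the table and is called the floor here. A gene listed there is not thereby shown to be silent. Estimated relative depth was 1 to 1.43 in the day 0 and 1.51 to 1.93 in the day 4 libraries, so genes under 0.3 FPKM rest on few fragments and no fold is given against them. Between 10997 and 11143 genes reached 1 FPKM in each of the 6 libraries. Short RNAs inflate under FPKM scaling, and the single highest value was Snord57 in day 0 library 2 and Mir5133 in day 0 library 3. In all day 4 libraries it was Fabp4. Correlation of log2(FPKM + 1) across genes was 0.986 to 0.993 between libraries of the same day and 0.819 to 0.829 between days. This correlation is across genes, which are not independent replicates.

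Acly itself (chromosome 11, 100476352 to 100528000, mm10) stood at 89.5, 86.2 and 84.9 FPKM on day 0 and 814, 722 and 724 FPKM on day 4. All day 4 libraries lay above all day 0 libraries, and the level rose 8.68-fold (log2 fold change 3.10, SE 0.08, adjusted p = 3.31e-13). In Acly-/- cells the same gene stood at 11.9, 12.5 and 11.9 FPKM on day 0 and 13.2, 12.8 and 11.0 FPKM on day 4. The Aclyf/f libraries thus carried the higher level on both days, as their labels state. The fragments counted cover the whole gene, not only the exons that the deletion removes.

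Most of the genes tested differed between day 0 and day 4. Of 11777 genes tested with limma on log2(FPKM + 1), 8537 were called at an adjusted p under 0.05 (72.5%), 4301 of them higher (36.5%) and 4236 lower on day 4 (36.0%). The median log2 fold change over all genes tested was -0.00. The groups did not overlap in 75.7% of genes tested. At 2-fold or more on the log2(FPKM + 1) scale, 1510 genes were called higher (12.8%) and 1256 lower (10.7%). At 8-fold or more on that scale, the counts were 186 and 119. Against a fold of 1.5, limma's treat test called 1828 genes higher and 1579 lower, and of 321 genes followed by name 57 with small changes were not called by it. With so many calls, a list is described below by its counts, its median and the size of its changes, and no p-value is given for a list. The shares of 36.5% higher and 36.0% lower are the background for each list count.

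**Figure D1:**
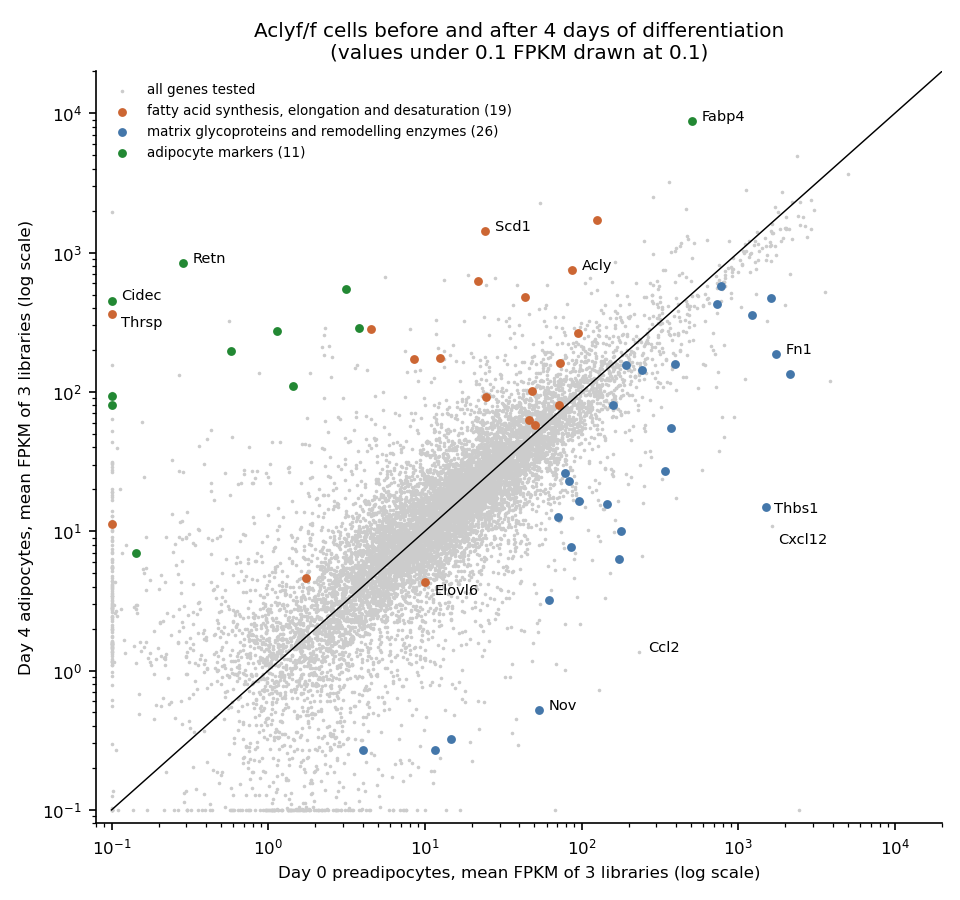
Mean FPKM of the 3 day 0 libraries (horizontal) against that of the 3 day 4 libraries (vertical), both on log scales, for each of the 11777 genes tested, with 3 gene lists in colour and the line of equality in black. Adipocyte markers and most fatty acid synthesis genes lie above the line, Elovl6 being the called exception, and all 26 matrix genes lie below it.

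On the log2(FPKM + 1) scale the largest rise was that of Retn, which encodes the secreted protein resistin (chromosome 8, 3655770 to 3659818). It stood at 0.328, 0.297 and 0.236 FPKM on day 0 and 938, 786 and 809 FPKM on day 4 (log2 fold change 9.36, SE 0.13, adjusted p = 1.81e-15). Cidec, whose product fuses lipid droplets (chromosome 6, 113424634 to 113435760), stood at 0.01, 0.157 and 0.01 FPKM on day 0 and 455, 449 and 442 FPKM on day 4. Thrsp, a lipogenic nuclear protein known as Spot14, stood at 0.01, 0.01 and 0.11 FPKM on day 0 and 423, 339 and 332 FPKM on day 4. Each of these genes was under 0.5 FPKM in every day 0 library and among the abundant transcripts in every day 4 library. Next on that scale came G0s2, an inhibitor of the lipase ATGL, which rose 569-fold from 0.563 to 320.2 FPKM, and Adig, an adipocyte protein also called adipogenin, which reached 183, 138 and 149 FPKM from at most 0.209. Adipoq, encoding adiponectin, rose 174-fold, Cfd, encoding the complement protease adipsin, 239-fold, and Plin1, the perilipin of mature lipid droplets, 339-fold. The locus listed for Cfd spans many neighbouring genes, chromosome 10 from 79697305 to 80369637, and is shared with Fstl3 and Ndufs7, so its borders are those of a cluster and not of the gene. Sult1a1, Cdo1, Orm1, Apoc1, Slc2a4, Cbr2 and Gpd1 complete the 15 largest rises among called genes with at least 5 FPKM and no overlap between days, with day 4 means of 131, 669, 97.4, 287, 93.7, 256 and 80 FPKM. Sult1a1 is a sulfotransferase, Cdo1 makes taurine precursors from cysteine, Orm1 is an acute-phase protein with close copies in the genome, and Apoc1 is an apolipoprotein.

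The largest falls were in secreted and contractile proteins of stromal cells. Cxcl12, the chemokine that holds blood progenitors in their niche (chromosome 6, 117168535 to 117181368), stood at 1632, 1656 and 1651 FPKM on day 0 and 13.5, 9.13 and 9.95 FPKM on day 4, a 152-fold fall (log2 fold change -7.14, SE 0.13, adjusted p = 1.9e-14). Ccl2, which attracts monocytes, stood at 224, 237 and 236 FPKM on day 0 and 1.1, 1.65 and 1.35 FPKM on day 4. Thbs1, the matrix protein thrombospondin 1 (chromosome 2, 118111922 to 118127133), went from 1613, 1409 and 1484 FPKM to 15.9, 14.3 and 14.7 FPKM. No day 4 library reached any day 0 library in these genes, and the mean of Ccl2 fell 170.4-fold and that of Thbs1 100.3-fold. Ptn, a heparin-binding growth factor, fell 179-fold and Rspo2, a secreted amplifier of Wnt signals, 78.7-fold. S100a4, a calcium-binding protein often used as a fibroblast marker, was among the most abundant day 0 transcripts at 3602, 3856 and 4105 FPKM and fell to 132, 107 and 118 FPKM. Il1rl1, Nov, Myl9, Sfrp1, Ccl7, Col8a1, Ccl8, Enpp1 and Rgs4 complete the 15 largest falls, with log2 fold changes from -4.75 to -6.04.

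Some genes went from near nothing to a clear level. In all, 28 genes were under 0.3 FPKM in all 3 day 0 libraries and at 10 FPKM or more in all 3 day 4 libraries, and 7 did the reverse. Among the highest that switched on were Cidec, Thrsp, Adig, Orm1, Slc2a4, Gpd1, Car3, Aldh1a7 and Mir8112. Car3, a carbonic anhydrase abundant in fat, stood at 0.01, 0.01 and 0.278 FPKM and then at 74.5, 59.9 and 57.9 FPKM. Mir8112 is a 131-base entry, a length at which FPKM is unreliable, and its day 4 values of 66.9, 40.8 and 48.5 FPKM are uncertain. The 7 that switched off were Il1rl1, Aldh1a2, S1pr1, Sfrp4, Fbln7, Plxdc2 and Smoc2. Aldh1a2, which makes retinoic acid, went from 19.97, 20.4 and 19.7 FPKM to 0.17, 0.3 and 0.203 FPKM, and S1pr1, a sphingosine 1-phosphate receptor, from 16, 15.8 and 18.6 FPKM to 0.125, 0.0488 and 0.0891 FPKM.

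The regulators of adipogenesis moved unevenly. Pparg stood at 52.7, 45.2 and 44 FPKM on day 0 and 161, 162 and 159.7 FPKM on day 4, a 3.4-fold rise (log2 fold change 1.75, SE 0.08, adjusted p = 2.5e-10). Cebpa stood at 34.1, 29.3 and 27.5 FPKM on day 0 and 154, 128 and 121 FPKM on day 4, a 4.45-fold rise (log2 fold change 2.11, SE 0.14, adjusted p = 1.12e-08). For both, every day 4 library lay above every day 0 library, and both were already expressed before the cocktail. Cebpb stood at 57.8, 42.4 and 39.6 FPKM on day 0 and 62.6, 55.3 and 43.3 FPKM on day 4, the ranges overlapped, and no change was detected (log2 fold change 0.21, SE 0.21, adjusted p = 0.386). Cebpd rose 2.7-fold, from 12, 9.47 and 7.29 FPKM to 31, 25.6 and 21.2 FPKM (adjusted p = 1.51e-05). Srebf1, which encodes the lipogenic factor SREBP1, went from 24, 25.6 and 24.1 FPKM to 169, 153 and 152 FPKM, a 6.44-fold rise. Mlxipl, encoding the glucose-responsive factor ChREBP, was at 0.116, 0.0344 and 0.0539 FPKM on day 0 and 27.3, 27.6 and 27.4 FPKM on day 4.

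Of 23 adipogenic transcription factors tested, 16 rose and 6 fell, with a median log2 fold change of 1.33. Large rises were also seen in Klf15, a glucocorticoid-induced Kruppel factor (29.8-fold, to 89.99 FPKM), in Nr1h3, the oxysterol receptor LXR alpha (24.8-fold, to 42.6 FPKM), and in Lpin1, a phosphatidate phosphatase that also acts as a coactivator (from 9.28 to 143 FPKM). The 6 that fell did so by less than 2-fold. They were the early factor genes Klf4 and Klf6, Creb1, the glucocorticoid receptor gene Nr3c1 (38.6 to 26.3 FPKM), Ebf1 and Ebf3. Zfp423, a factor of preadipocyte commitment, rose from 4.92 to 9.18 FPKM.

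Genes that hold back adipogenesis fell in 14 of 17 members tested and rose in 2, with a median of -1.20. Gata2, a repressor of Pparg, fell 17.2-fold from 7.61, 7.01 and 6.44 FPKM to 0.581, 0.34 and 0.304 FPKM. Inhba, the activin A subunit, fell 18.5-fold from 14.9 to 0.807 FPKM, and Runx1t1 fell 11.1-fold. Ddit3, encoding the C/EBP antagonist CHOP, rose instead, from 26.4, 31.5 and 29.3 FPKM to 353, 323 and 319 FPKM (log2 fold change 3.47, SE 0.14, adjusted p = 6.5e-11). The other riser was Tgfb1, which went from 20.5 to 25.4 FPKM (adjusted p = 0.0167) and was not called without day 0 library 3 (0.0786) or day 4 library 1 (0.068). Dlk1, the classic preadipocyte inhibitor, was at most 0.104 FPKM in every library, so this line could not show its usual fall.

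**Figure D2:**
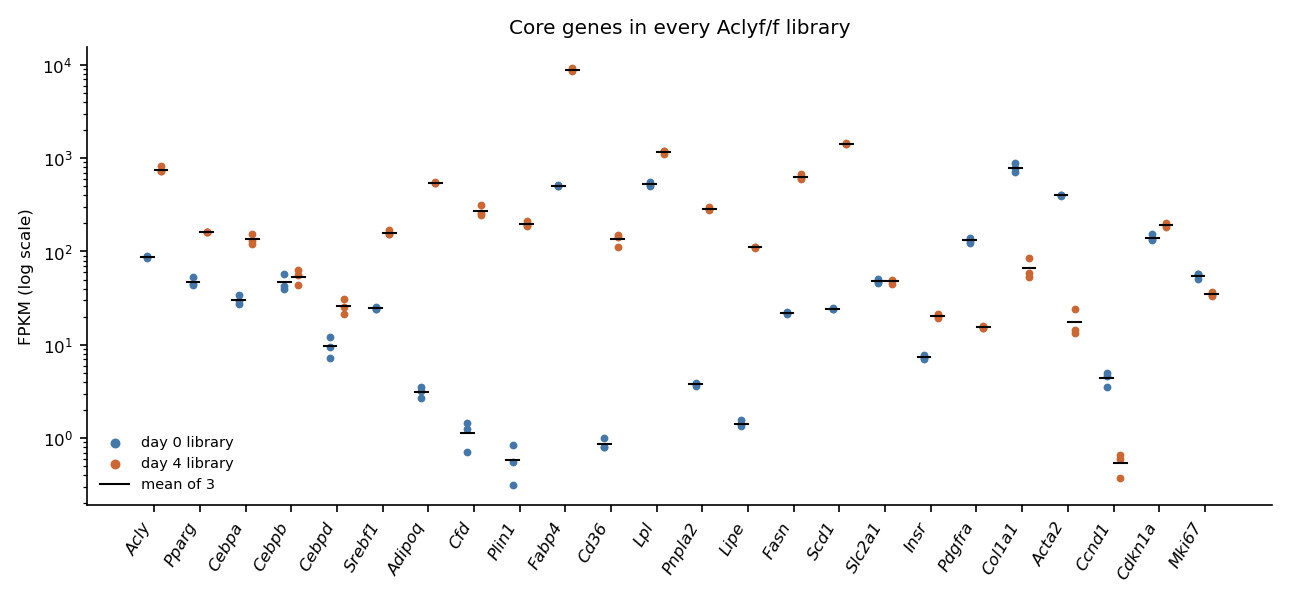
FPKM on a log scale of 24 genes in each of the 3 day 0 and 3 day 4 Aclyf/f libraries, each point a library and each bar the mean of 3. Cebpb and Slc2a1 overlap between days, and the other 22 genes do not.

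Lipid droplet and lipolysis genes rose together. All 13 lipolysis genes tested rose, 12 of them at least 2-fold, with a median of 2.80. Pnpla2, which encodes ATGL, the first lipase of triglyceride breakdown, stood at 3.82, 3.94 and 3.62 FPKM on day 0 and 297, 287 and 280.1 FPKM on day 4, a 76-fold rise. Lipe, the hormone-sensitive lipase, went from 1.34, 1.56 and 1.4 FPKM to 112, 110.4 and 109 FPKM, a 77.1-fold rise. The ATGL inhibitor G0s2 and the ATGL activator Abhd5 both rose, to 320.2 and 58.5 FPKM. Among the receptors that control lipolysis, Adrb3 went from 0.143 to 7.02 FPKM, while Adrb1 was not tested at 0.0865 and 0.01 FPKM. The antilipolytic adenosine receptor Adora1 went from 0.0137 to 10.1 FPKM. Members such as Adrb3 and Adora1 were below the level required for testing on day 0, so no fall could have been called in them. Of 8 lipid droplet genes tested, 7 rose and 1 fell, with a median of 2.17. Bscl2, encoding the droplet assembly protein seipin, rose 7.11-fold, and Plin2, the perilipin found in most cells, rose from 74.6 to 288 FPKM against 0.576 to 196 FPKM for Plin1. The gene that fell was Hilpda, from 13.8 to 10.4 FPKM.

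Secreted proteins of fat followed with exceptions. Of 14 adipokine genes tested, 11 rose and 3 fell, with a median of 1.73. Rbp4, the retinol carrier, went from 2.27 to 183 FPKM and Nampt, which makes an NAD precursor, from 36.4 to 419 FPKM. Angptl4, a lipoprotein lipase inhibitor and a known PPAR target, fell 2.29-fold, from 29.3, 30.3 and 28.4 FPKM to 14.8, 12.3 and 11.4 FPKM (log2 fold change -1.14, SE 0.12, adjusted p = 1.52e-06). Metrnl fell 5.57-fold and C1qtnf1 7.58-fold. Lep, encoding leptin, was listed at the floor in all 6 libraries on both days.

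Genes known as PPAR gamma targets rose in 16 of 19 members tested and fell in 2, with a median of 2.89. Fabp4, the fatty acid carrier of adipocytes, stood at 503, 499.7 and 517 FPKM on day 0 and 8492, 9282 and 8733 FPKM on day 4, a 17.4-fold rise (log2 fold change 4.12, SE 0.10, adjusted p = 2.13e-13). It was abundant before the cocktail and on day 4 it was the highest gene of each library. Cd36, the fatty acid translocase, went from 0.809, 0.803 and 1.01 FPKM to 111, 144 and 151 FPKM, a 155-fold rise. Lpl, the lipase that frees fatty acids from lipoproteins, rose 2.22-fold, from 519, 499.9 and 553 FPKM to 1096, 1193 and 1199.8 FPKM. Pck1, which feeds glycerol synthesis in fat and is another known target, was listed at the floor in all 6 libraries. Gyk, at a mean of 3.26 FPKM on day 0 and 3.12 FPKM on day 4, was not called, and Slc25a20 fell to 12.6 FPKM (adjusted p = 0.0125), not called without day 0 library 3 (0.0507) or day 4 library 3 (0.0613). Of 13 genes of fatty acid uptake and activation tested, 8 rose and 2 fell. Acsl1, the main acyl-CoA synthetase of fat, rose 19.5-fold from 4.83 to 94.2 FPKM.

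The route from glucose to stored triglyceride rose at almost every step. Of 19 genes of fatty acid synthesis tested, 17 rose and 1 fell, 15 of the rises being at least 2-fold, and the median of 3.10 was the highest of the 43 lists. Acaca, encoding acetyl-CoA carboxylase, stood at 12.4, 13.2 and 11.9 FPKM on day 0 and 169, 176 and 176 FPKM on day 4, a 13.9-fold rise (log2 fold change 3.70, SE 0.09, adjusted p = 4.32e-13). Fasn, the fatty acid synthase, went from 22.1, 22.6 and 21.2 FPKM to 673, 602 and 607 FPKM, a 28.6-fold rise. Scd1, the desaturase that makes oleate, went from 24.7, 24.1 and 24 FPKM to 1429, 1442 and 1429 FPKM, a 59.1-fold rise. Day 0 and day 4 libraries were far apart in all 3 genes. Acss2, which makes acetyl-CoA from acetate, rose 62.6-fold, and Slc25a1, the carrier that exports citrate from mitochondria, rose from 43.7 to 483 FPKM. Elovl6, which lengthens palmitate to stearate, fell 2.32-fold, from 9.39, 10.2 and 10.7 FPKM to 4.04, 4.63 and 4.34 FPKM (log2 fold change -1.05, SE 0.10, adjusted p = 3.21e-07). Scd3, at 0.0344 to 11.3 FPKM, is close in sequence to Scd1, so its level is uncertain.

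NADPH, which fatty acid synthesis consumes, is made by the pentose phosphate pathway, malic enzyme and isocitrate dehydrogenase. Of 11 such genes tested, 9 rose and 1 fell, with a median of 1.21. Taldo1 rose 7.59-fold, the malic enzyme gene Me1 6.15-fold and Tkt 3.19-fold. Nnt, the mitochondrial transhydrogenase, fell 4.87-fold, from 13.3, 14 and 14.9 FPKM to 2.61, 2.93 and 3.14 FPKM.

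Glycolysis genes rose in 16 of 20 members tested and fell in 2, with a median of 1.35. Aldoa rose from 464 to 2056 FPKM, Gapdh from 1119.7 to 2826 FPKM and Ldha from 427 to 1114 FPKM. Pfkfb3 and Pfkfb1, which set the level of the phosphofructokinase activator, rose 6.36-fold and 9.85-fold. Eno1, at 327 and 371 FPKM, and the lactate exporter gene Slc16a3, at 13.6 and 12 FPKM, were not called.

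Of 15 triglyceride synthesis genes tested, 10 rose and 3 fell, with a median of 0.66. Dgat2, the last enzyme of the route, stood at 2.39, 2.65 and 2.3 FPKM on day 0 and 234, 202 and 204 FPKM on day 4, an 87.1-fold rise (log2 fold change 5.95, SE 0.10, adjusted p = 8.37e-15). Gpd1, which makes glycerol 3-phosphate, went from 0.0514, 0.0916 and 0.01 FPKM to 84.2, 77.3 and 78.5 FPKM. Agpat2, the gene whose loss causes lipodystrophy, rose 28.1-fold, and Dgat1 went from 13.2 to 151 FPKM. The rises were selective within families: Agpat1, Agpat3 and Agpat5 rose by at most 0.66 on the log2 scale, Agpat4 fell from 33.8 to 21.9 FPKM, and Lpin2 from 7.6 to 5.39 FPKM. The third fall, Agpat6 at 24.7 to 21.3 FPKM, was not called without day 0 library 3 (adjusted p = 0.0699), day 4 library 2 (0.0515) or day 4 library 3 (0.108).

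**Figure D3:**
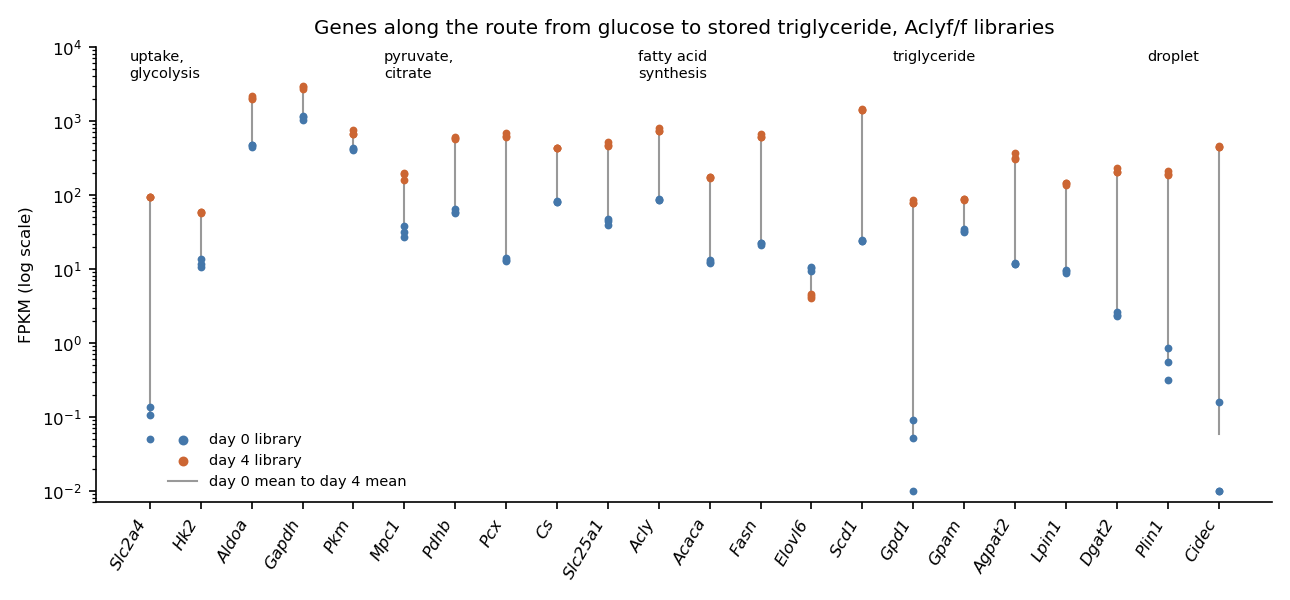
FPKM on a log scale of 22 genes ordered along the route from glucose uptake to the lipid droplet, with each of the 3 day 0 and 3 day 4 Aclyf/f libraries as a point and a line between the means. All but Elovl6 lie higher on day 4, and points at 0.01 FPKM are at the floor of the table.

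Insulin response genes rose in 12 of 20 members tested and fell in 6, with a median of 0.96. The shares over all genes tested were 36.5% higher and 36.0% lower. Slc2a4, the insulin-regulated glucose transporter GLUT4, was at 0.0507, 0.136 and 0.106 FPKM on day 0 and 94.2, 92.7 and 94.1 FPKM on day 4. Genes of GLUT4 trafficking differed in size of change: Sort1, encoding sortilin, went from 0.338, 0.341 and 0.532 FPKM to 43.7, 47.6 and 46.6 FPKM, and Tbc1d4, the AKT substrate AS160, from 1.35 to 28.7 FPKM. Tusc5, another GLUT4 trafficking protein, rose 39.2-fold, while Rab10, a GTPase of GLUT4 vesicles, rose 1.21-fold (adjusted p = 0.00797, and 0.108 with quantile normalization). Lnpep, encoding the vesicle resident IRAP, stood at 34.3 and 32 FPKM, its ranges overlapped, and it was not called (adjusted p = 0.617). Slc2a1, the basal glucose transporter GLUT1, stood at 50.7, 47.5 and 46 FPKM on day 0 and 45.4, 48.7 and 49.8 FPKM on day 4, the ranges overlapped, and no change was detected (log2 fold change -0.00, SE 0.08, adjusted p = 0.977).

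Several related genes moved in opposite directions, a set of pairs chosen after their values were seen. Insr, the insulin receptor gene, rose 2.76-fold, from 6.99, 7.27 and 7.83 FPKM to 19.4, 20.4 and 21.3 FPKM, while the related Igf1r fell from 8.23, 8.02 and 8.16 FPKM to 1.92, 1.67 and 1.67 FPKM (log2 fold change -1.73). Akt2, the AKT form tied to insulin action in fat, went from 33.7, 33.3 and 29.6 FPKM to 85.1, 79.7 and 78 FPKM, and Akt1 fell from 71.8, 64.2 and 63 FPKM to 35.5, 31.4 and 29.5 FPKM. On day 0 every library held more Akt1 than Akt2, and on day 4 every library held more Akt2. Hexokinase behaved alike: Hk2 rose from 11.9 to 58.6 FPKM and Hk1 fell from 34.6 to 28 FPKM. Irs2 rose from 3.19 to 8.16 FPKM and Irs1 fell from 20.7 to 16.1 FPKM. Igfbp4 rose 95.2-fold, from 2.7, 2.02 and 1.89 FPKM to 223, 201 and 206 FPKM, and Igfbp5 fell 36.6-fold, from 74.2, 82.6 and 78.9 FPKM to 2.36, 2.04 and 2.04 FPKM, so these IGF-binding proteins changed places.

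**Figure D4:**
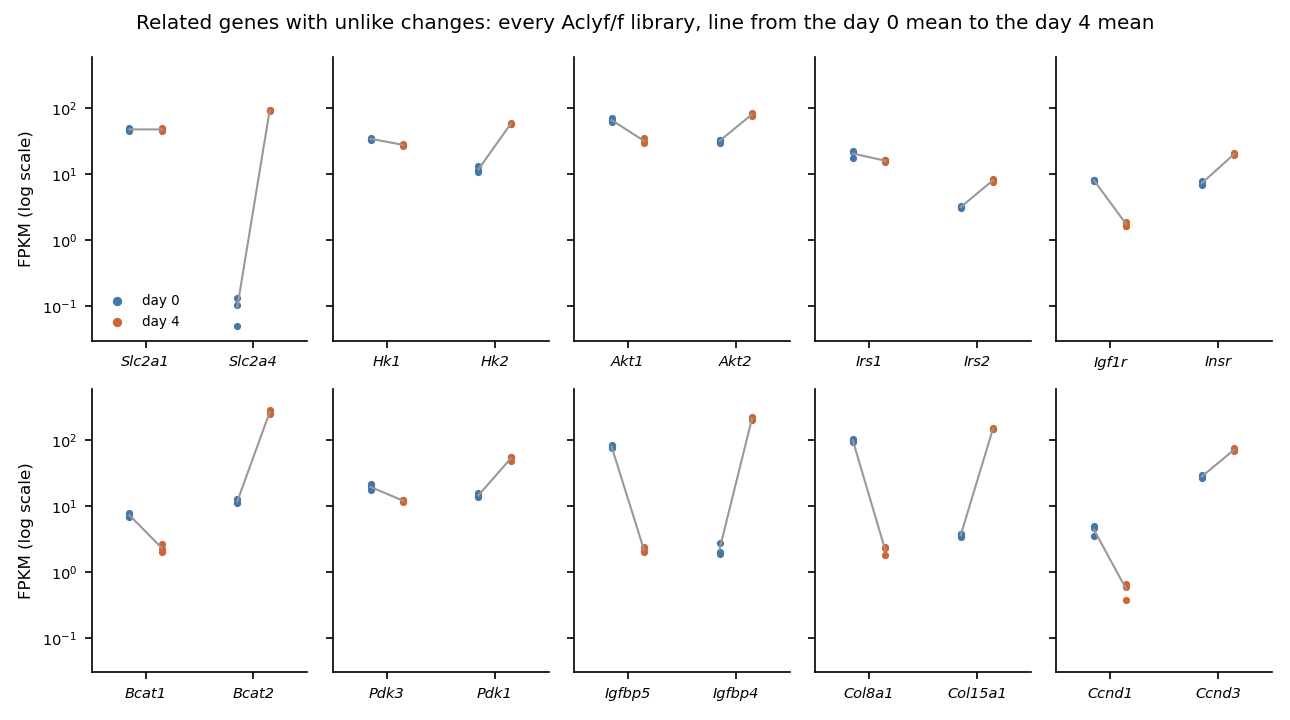
FPKM on a shared log scale of 10 pairs of related genes, each point an Aclyf/f library and each line running from the mean of 3 day 0 to the mean of 3 day 4 libraries. The right-hand gene of each pair is higher on day 4, while the left-hand gene is lower in 9 pairs and level in the pair with Slc2a1.

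Mitochondrial metabolism rose as broadly as fat synthesis, though by less per gene. Of 30 genes of pyruvate entry and the TCA cycle tested, 29 rose and 1 fell, with a median of 1.40. Pcx, which encodes pyruvate carboxylase, the enzyme that refills oxaloacetate for citrate export (chromosome 19, 4510472 to 4621752), stood at 13.2, 14 and 12.6 FPKM on day 0 and 684, 616 and 618 FPKM on day 4, a 48.1-fold rise (log2 fold change 5.49, SE 0.09, adjusted p = 1.31e-14). Pdhb, a subunit of pyruvate dehydrogenase, went from 59.1, 64.8 and 57.5 FPKM to 585, 575 and 599 FPKM. The other catalytic subunit gene, Pdha1, rose less, from 87.8 to 194 FPKM. Cs, citrate synthase, went from 80.6 to 429 FPKM, and the pyruvate carriers Mpc1 and Mpc2 from 32.5 to 183 and 41.8 to 163 FPKM. Among the kinases that switch pyruvate dehydrogenase off, Pdk1, Pdk2 and Pdk4 rose to 52.5, 17.3 and 27.1 FPKM, and Pdk3 fell from 19.3 to 12 FPKM.

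Branched-chain amino acid breakdown, another source of acetyl-CoA in fat, rose in 23 of 24 genes tested, with a median of 1.59. Bcat2, the mitochondrial aminotransferase, stood at 11, 11.5 and 12.6 FPKM on day 0 and 284, 243 and 258 FPKM on day 4, a 22.3-fold rise. Bcat1, its cytosolic counterpart, was the gene that fell, from 7.35, 7.68 and 6.73 FPKM to 2.22, 2.68 and 2.01 FPKM. Hibch and Aldh6a1, later steps of valine breakdown, rose 13.3-fold and 12.9-fold, and the dehydrogenase subunit Dbt went from 7.45 to 92.5 FPKM. Its inhibitory kinase Bckdk rose less, from 14.3 to 25.8 FPKM.

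Fatty acid oxidation genes rose in 22 of 24 members tested and fell in 2, with a median of 1.18. Ehhadh, a peroxisomal enzyme, rose 33.8-fold, Pex11a, which divides peroxisomes, 8.47-fold, and Echs1 5.6-fold. Cpt1a, the enzyme that gates entry of fatty acids into mitochondria, fell 6.5-fold, from 31.8, 33.9 and 29.9 FPKM to 4.65, 4.64 and 5.4 FPKM (log2 fold change -2.48, SE 0.09, adjusted p = 9.45e-12). Its muscle form Cpt1b was not tested and stood at 0.655 and 0.299 FPKM, so neither form was high on day 4, while Cpt2, the next step, rose from 16 to 36 FPKM.

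All 30 respiratory chain genes tested rose, with a median of 1.22. Cyc1, cytochrome c1, rose 4.29-fold, Ndufs7 4.13-fold and Atp5b from 433 to 1170.3 FPKM. Mitochondrial and cytosolic ribosomal proteins parted ways. Of 74 mitochondrial ribosomal protein genes, 62 rose and 2 fell, with a median of 0.65, and 29 were called higher against a fold of 1.5. Of 74 cytosolic ones tested, none was called higher and 49 were called lower, with a median of -0.35, while quantile normalization gave 5 higher and 37 lower. No cytosolic member changed as much as 2-fold, and these genes have many near-identical copies. Their summed FPKM made up 15.6% to 17.3% of each day 0 library and 12.4% to 13.6% of each day 4 library. The respiratory chain list made up 0.883% to 0.957% and then 1.98% to 2.09%.

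The regulators of mitochondrial number rose less. Of 13 tested, 9 rose and 2 fell, with a median of 0.30. Ppargc1b reached 3.89, 3.06 and 3.39 FPKM from at most 0.134, while Ppargc1a, which encodes the coactivator PGC-1 alpha, was at most 0.144 FPKM in every library. Mfn2, a mitochondrial fusion gene, rose 2.93-fold. Tfam, the packaging factor of mitochondrial DNA, stood at 12.7 and 13.7 FPKM without a call. Of the falls, Pprc1 went from 21.5 to 12.6 FPKM, and Gabpa, at 25.5 to 21 FPKM, had an adjusted p of 0.0361 that ranged up to 0.15 without 1 library.

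Most brown and beige fat genes were too low to test. Of 20 brown and beige genes, 6 were tested, of which 5 rose. Kcnk3, P2rx5 and Adrb3 were under 1 FPKM in every day 0 library. They reached the level required for testing on day 4, so no fall could have been called in them. Ucp1, the uncoupling protein, Cidea and Dio2 were listed at the floor in all 6 libraries, and Ppargc1a and Prdm16 lay under 1 FPKM on average on both days. Cox7a1, a cytochrome oxidase subunit of heart, muscle and brown fat, nevertheless went from 1.38, 0.64 and 1.03 FPKM to 32.1, 34.1 and 24.6 FPKM, a 29.7-fold rise. Kcnk3, a potassium channel, reached 4.61, 3.93 and 3.15 FPKM. P2rx5 and Adrb3 rose from 0.352 to 2.54 and from 0.143 to 7.02 FPKM. Ebf2 rose from 6.29 to 8.1 FPKM, with overlapping ranges.

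Cholesterol synthesis also rose, unevenly along the pathway. Of 27 genes tested, 23 rose and 2 fell, with a median of 1.00. Insig1, which retains the SREBP complex in the endoplasmic reticulum and is itself an SREBP target, stood at 35.7, 33.4 and 34.9 FPKM on day 0 and 323, 347 and 342 FPKM on day 4, a 9.73-fold rise (log2 fold change 3.25, SE 0.07, adjusted p = 7.15e-14). Pmvk and Mvd, enzymes of the mevalonate pathway, rose 9.79-fold and 7.1-fold. Other members moved little: Sqle, which encodes squalene epoxidase, had means of 54 and 61.5 FPKM (adjusted p = 0.0334) and Srebf2, which encodes the sterol-regulated factor SREBP2, 50.4 and 58.8 FPKM (0.0374). These small rises were not stable, since under single alternatives the adjusted p reached 0.512 for Sqle and 0.344 for Srebf2. Scap fell from 21.8 to 16.1 FPKM. Insig2 went from 31.8 to 26.2 FPKM (adjusted p = 0.0146) and was not called without day 4 library 1 (0.0742) or with libraries rescaled to the same FPKM sum (0.0522).

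Promoter sequence was available from RefSeq (GRCm38.p6) for 8957 of the 11777 genes tested, as 250 bases before to 50 bases after each start, and a gene with several starts counted once if any start held a motif. Motifs were searched on both strands and independently of each other. The box CCAAT, bound by NF-Y, was found in 18 of 20 cholesterol genes with a promoter (90.0%), against 43.4% of all genes tested and 37.4% of all 32851 promoters of that length. It was also found in 19 of 24 mitosis genes (79.2%), a list that fell in most members. The sterol element letters TCACNCCAC were found in 1 of those 20. The PPAR gamma element, AGGTCA repeated after 1 base, was in 0 of 13 PPAR gamma target genes and in 0.0396% of all promoters, so such windows seldom hold these exact letters. The sequences below show 2 genes that rose and 1 that did not rise, each with CCAAT or its reverse complement in capitals, upstream of the start and on the strand of the gene.
Insig1, chr5:28071166-28071230, plus strand: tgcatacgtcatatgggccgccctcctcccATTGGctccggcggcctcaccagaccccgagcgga
Mvd, chr8:122443423-122443512, minus strand: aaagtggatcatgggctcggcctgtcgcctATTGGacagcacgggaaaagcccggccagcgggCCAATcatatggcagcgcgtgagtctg
Insig2, chr1:121332590-121332665, minus strand: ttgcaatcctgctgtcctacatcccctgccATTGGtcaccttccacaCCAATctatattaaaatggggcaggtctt
The Mvd and Insig2 windows end at the base before the start and hold 2 matches each, and the Insig1 window ends 181 bases before it and holds 1. A match is a description of letters and says nothing of binding in these cells.

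Genes known to respond to glucocorticoids rose in 10 of 14 members tested and fell in 3, with a median of 2.73. The labels name rosiglitazone and no other part of the cocktail. Tsc22d3 and Fkbp5, standard markers of the response, went from 12.2 to 206 and 17.7 to 324 FPKM. Hsd11b1, which makes active glucocorticoid inside the cell, stood at 4.23, 3.89 and 4.69 FPKM on day 0 and 143, 143 and 147 FPKM on day 4, a 33.8-fold rise. Zbtb16 reached 31.1, 31.7 and 30.9 FPKM from at most 0.0568. Mt2, a metallothionein, rose 41.8-fold to 2238, 2383 and 2235 FPKM. Sgk1 fell 3.18-fold and Gpx3, a secreted glutathione peroxidase that was among the most abundant day 0 transcripts, fell 6.83-fold, from 3485, 3714 and 3487 FPKM to 593, 491 and 481 FPKM, while Dusp1 stood at 12.1 and 12.3 FPKM without a call.

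Clock genes rose in 12 of 16 members tested and fell in 2, with a median of 1.40. Dbp, an output gene of the clock, rose 15.1-fold, from 3.12, 3.67 and 3.75 FPKM to 59, 52.1 and 48.5 FPKM. Per1, Per3 and the repressor gene Nr1d1 rose to 35.6, 36.7 and 38.8 FPKM. Arntl, which encodes the activator BMAL1, fell 2.14-fold, from 6.73, 7.7 and 8.16 FPKM to 3.39, 3.44 and 3.71 FPKM, and its partner Clock stood at 9.43 and 9.35 FPKM without a call. The labels give no time of day.

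The preadipocyte state receded but did not vanish. Of 11 progenitor markers tested, 10 fell and 1 rose, with a median of -1.89. Pdgfra, the growth factor receptor that marks fat progenitors, stood at 123, 131 and 140.2 FPKM on day 0 and 16, 15.3 and 15.2 FPKM on day 4, an 8.48-fold fall (log2 fold change -3.003, SE 0.08, adjusted p = 1.11e-12). Pdgfrb fell 7.03-fold and Cd44 9.93-fold. Ly6a, the stem cell antigen Sca-1, still stood at 167, 106 and 110.2 FPKM on day 4, from 533, 454 and 413 FPKM. In bulk RNA, fewer cells of a type and less RNA per cell cannot be told apart. Cd34, Thy1, Dpp4 and Pi16 did not reach the level required for testing, with Cd34 at 0.527 to 1.7 FPKM and Thy1 at 0.01 to 0.844 FPKM over the 6 libraries. Nt5e was the riser, to 2.23, 2.43 and 2.66 FPKM.

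The fibrillar matrix fell almost as a whole. Of 13 fibrillar and interstitial collagen genes tested, 12 fell and 1 rose, with a median of -1.64. Col1a1 stood at 883, 775 and 710.2 FPKM on day 0 and 84.9, 53.7 and 58.8 FPKM on day 4, a 12-fold fall (log2 fold change -3.59, SE 0.17, adjusted p = 2.2e-10). Col1a2 fell 8.96-fold, Col3a1 from 722 to 108 FPKM and Col8a1 45.6-fold. Col5a3 rose 4.21-fold, from 16.3, 15.4 and 14.7 FPKM to 68.2, 63 and 64.4 FPKM. All 26 matrix glycoprotein and remodelling genes tested fell, 21 of them at least 2-fold, with a median of -2.60, the lowest of the 43 lists. Fn1, fibronectin, went from 1744 to 188 FPKM, Fbn1, fibrillin 1, from 179 to 10.03 FPKM, and the crosslinking enzyme gene Lox from 1226 to 354 FPKM. Postn, encoding periostin, fell less, from 777 to 571 FPKM, and the call for Vcan, from 191 to 155 FPKM, was lost in several alternatives (adjusted p up to 0.122). Timp2 and Mmp14, an inhibitor and an activator of matrix breakdown, both fell, from 343 to 27.2 and 372 to 54.8 FPKM.

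Basement membrane genes went the other way. Of 16 tested, 10 rose and 2 fell, with a median of 1.33. Col15a1, a collagen that underlies basement membranes, stood at 3.39, 3.69 and 3.73 FPKM on day 0 and 153, 147 and 148 FPKM on day 4, a 41.4-fold rise (log2 fold change 5.03, SE 0.09, adjusted p = 1.64e-14). Col4a1 and Col4a2, the chains of the common type IV collagen, went from 35.1 to 244 and 24.1 to 178 FPKM. Lama4, the laminin chain of adipocyte basement membranes, rose 13.7-fold, from 2.84, 3.09 and 3.71 FPKM to 44, 44 and 44.2 FPKM, and Lama5 fell 2.62-fold. The other 4 members were not called.

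The contractile apparatus fell steeply. Of 20 contractile and SRF or YAP target genes tested, 19 fell and 1 rose, with a median of -2.20. Acta2, smooth muscle actin, stood at 407, 404 and 392 FPKM on day 0 and 24.4, 14.3 and 13.4 FPKM on day 4, a 23-fold fall (log2 fold change -4.50, SE 0.16, adjusted p = 1.33e-11). Day 4 library 1 was the highest of its group for Acta2, and for Myl9, a myosin light chain, at 5.78, 2.45 and 1.78 FPKM against 152, 141 and 132 FPKM on day 0. Actb, the cytoskeletal actin often used as a reference gene, went from 1999 to 421 FPKM, so it is no stable reference here. Tpm1 fell from 585 to 27.3 FPKM, Ctgf, a YAP target, 27.6-fold, and Srf itself from 42.1 to 11.3 FPKM. Amotl2 was the riser, from 60.9 to 76.3 FPKM. Of 7 caveola coat genes tested, 5 rose and 1 fell. Cav1 rose 9.17-fold and Cav2 9.92-fold, from 83 to 761 and 25.8 to 256 FPKM, whereas Ptrf, encoding cavin 1, fell 1.5-fold, a direction it kept under quantile normalization, which called 2 members of the list lower.

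Most genes tested for signals that act on preadipocytes also fell. Of 19 TGF-beta and BMP pathway genes tested, 14 fell and 4 rose, with a median of -0.97. Ltbp1, which stores latent TGF-beta in the matrix, fell 31.2-fold, and Grem1, a BMP antagonist, went from 7.05, 7.28 and 7.58 FPKM to the floor in all 3 day 4 libraries. Fst, encoding the activin antagonist follistatin, rose 5.64-fold. Tgfbr1 and Tgfbr2, the receptor genes, went from 18.8 to 6.79 and 39.8 to 19.5 FPKM. Of 19 Wnt pathway genes tested, 15 fell and 1 rose, with a median of -1.68. The secreted Wnt antagonists Sfrp1, Sfrp2 and Sfrp4 fell along with the agonist Rspo2, Sfrp1 by 61.1-fold from 73.7, 68.2 and 63 FPKM to 1.3, 0.945 and 1.11 FPKM. Fzd4 was the receptor gene that rose, 2.27-fold, whereas Fzd1, Fzd2 and Fzd7 fell to 15.3, 3.06 and 7.71 FPKM. Of 18 growth factor genes tested, 6 rose and 11 fell, with a median of -0.81. Beside these 3 lists, the shares over all genes tested were 36.5% higher and 36.0% lower. Fgf7 fell 13.1-fold and Hgf, the hepatocyte growth factor gene, 8.39-fold, while Vegfb rose 2.08-fold.

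**Figure D5:**
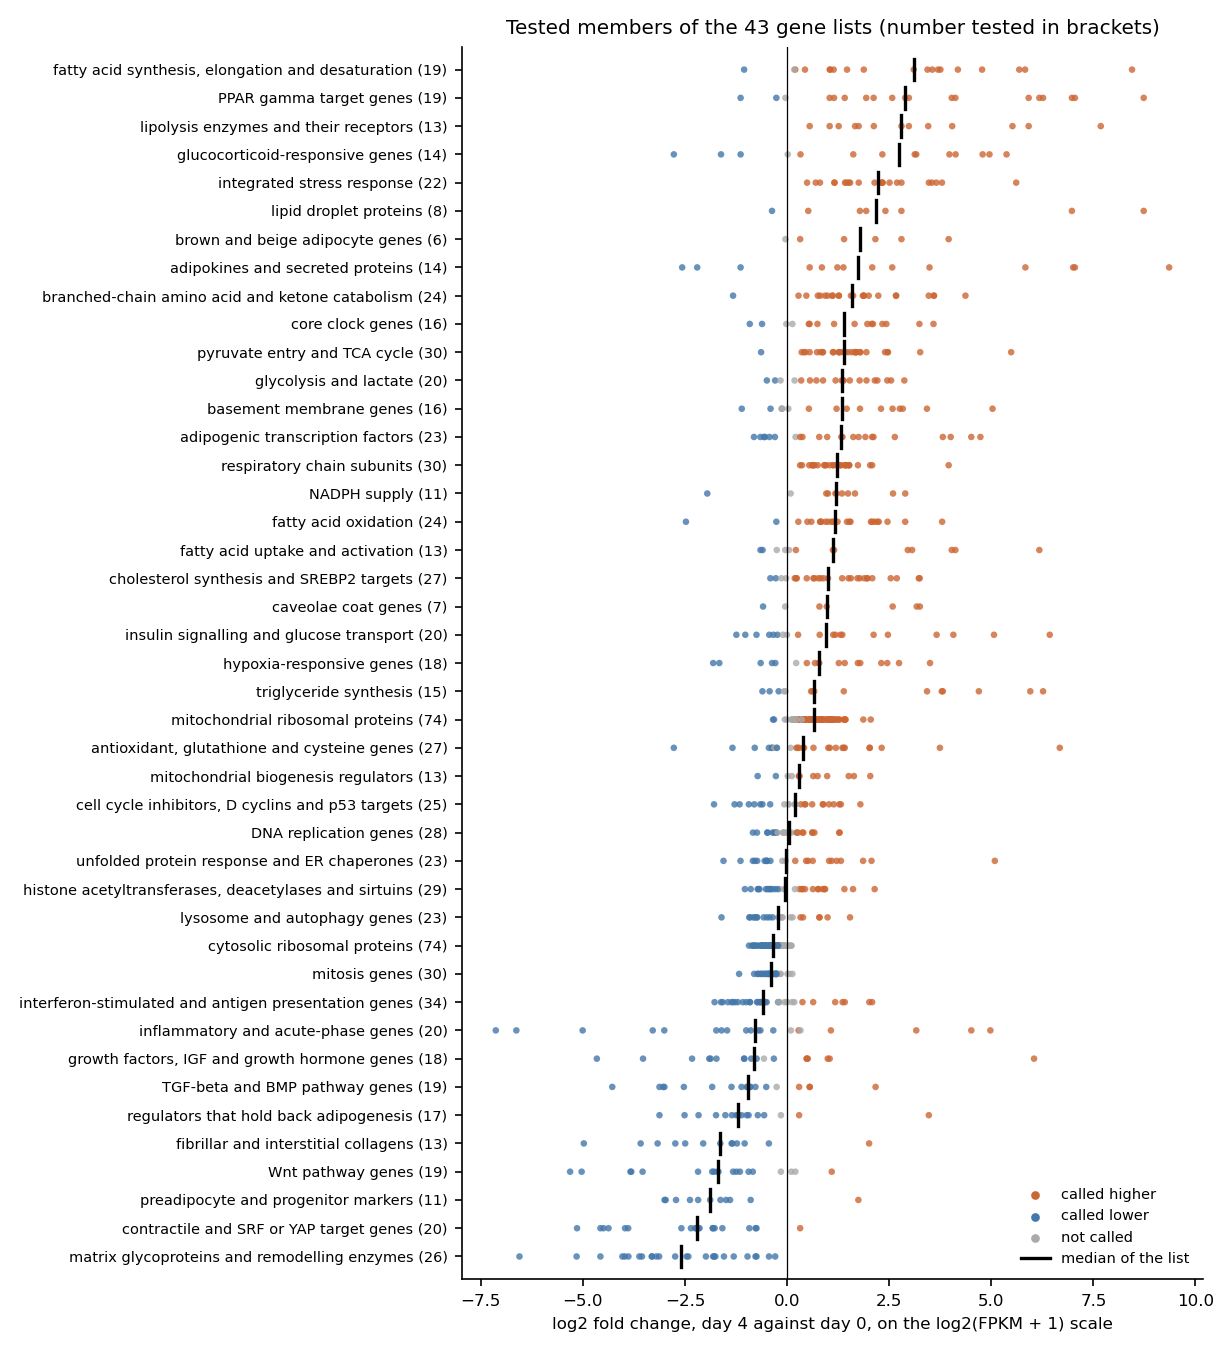
Log2 fold change of day 4 against day 0 on the log2(FPKM + 1) scale (horizontal) for each tested member of the 43 lists (rows, ordered by median), coloured by call at an adjusted p under 0.05, with the list median as a black bar. Medians run from -2.60 for matrix glycoproteins to 3.10 for fatty acid synthesis, and many lists hold members on both sides of 0.

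Replication genes moved both ways, and most mitosis genes fell, by small amounts. Of 28 DNA replication genes tested, 9 rose and 8 fell, with a median of 0.03. For all genes tested the median was -0.00, with 36.5% called higher and 36.0% lower. Cdt1 and Cdc45, which license and start replication origins, rose 2.46-fold and 2.48-fold, while Mcm4, a subunit of the replicative helicase, fell 1.8-fold and Pcna stood at 329 and 310 FPKM without a call. Of 30 mitosis genes tested, none rose and 24 fell, with a median of -0.41, and against a fold of 1.5 limma's treat test called 1 of them lower. Mki67, the proliferation marker, stood at 50.1, 56.8 and 58.1 FPKM on day 0 and 33, 36.7 and 34.6 FPKM on day 4, a 1.58-fold fall (log2 fold change -0.65, SE 0.12, adjusted p = 0.000297). All day 4 libraries lay below all day 0 libraries, yet the gene remained well expressed on day 4. The cells carry SV40, and division between induction and day 4 was not measured here.

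The promoter letters differ between these cell cycle lists. The CHR element TTTGAA was found in 17 of 24 mitosis genes with a promoter (70.8%), in 3 of 22 replication genes (13.6%) and in 1250 of the 8957 genes tested. The E2F letters TTTCCCGC or TTTGGCGC were found in 9 of 22 replication genes (40.9%), in 0 of 24 mitosis genes and in 3.62% of all genes tested. Among genes called at least 2-fold higher or lower the CHR shares were 12.3% and 15.2%, near that of all genes tested. All 32851 promoters of that length held CHR in 17.9% and the E2F letters in 1.56%. Mki67 and Pola1, the catalytic subunit of DNA polymerase alpha, which fell 1.42-fold, show the 2 kinds, with CHR in capitals in Mki67 and the reverse complement of an E2F element in capitals in Pola1.
Mki67, chr7:135716442-135716525, minus strand: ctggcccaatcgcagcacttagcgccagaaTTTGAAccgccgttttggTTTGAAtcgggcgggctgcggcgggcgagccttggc
Pola1, chrX:93632256-93632323, minus strand: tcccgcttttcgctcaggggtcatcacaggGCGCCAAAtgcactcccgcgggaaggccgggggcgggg

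Cyclins and inhibitors moved one by one. Ccnd1 fell 8.01-fold, from 4.93, 4.65 and 3.51 FPKM to 0.665, 0.596 and 0.375 FPKM, and Ccnd3, the D cyclin linked to adipogenesis, rose 2.54-fold. Cdkn1a, encoding the inhibitor p21, rose 1.36-fold, from 154, 137 and 132 FPKM to 203, 183 and 190.2 FPKM. Trp53 fell 2.48-fold, from 88.1, 78.4 and 73.3 FPKM to 36, 31.4 and 29.2 FPKM. Across the 25 tested members of this list 11 rose and 8 fell, with a median of 0.20, beside 36.5% higher and 36.0% lower over all genes tested. Bbc3, a p53 target that promotes cell death, rose 4.05-fold, while Mdm2, Ccng1 and Zmat3, other p53 targets, fell to 28.2, 60.4 and 7.01 FPKM.

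Immune genes moved both ways, and the examples here were chosen after their values were seen. Of 34 interferon and antigen presentation genes tested, 7 rose and 20 fell, with a median of -0.58. Among the members that fell, Ifit1, an antiviral effector, stood at 44.6, 70.5 and 59.96 FPKM on day 0 and 22.6, 18 and 15.6 FPKM on day 4, a 3.11-fold fall, and Irgm1 fell 3.6-fold. Among the members that rose, H2-K1, an MHC class I gene, stood at 136, 127 and 114 FPKM on day 0 and 627, 495 and 487 FPKM on day 4, a 4.28-fold rise, and the immunoproteasome gene Psmb9 rose 4.14-fold, with Psmb8 and the peptide transporter gene Tap1 reaching 148 and 73 FPKM. H2 genes are alike in sequence, so the split between H2-K1 and H2-D1 is uncertain. B2m, the shared light chain, stood at 1785 and 1940.4 FPKM without a call, and quantile normalization called it higher. Of 20 inflammatory genes tested, 5 rose and 13 fell, with a median of -0.80. For both lists, the shares over all genes tested were 36.5% higher and 36.0% lower. C3, the central complement protein, rose 35.3-fold, from 7.65, 8.35 and 7.99 FPKM to 298, 278 and 272 FPKM, and the haptoglobin gene Hp rose 23.8-fold. Csf1 and Vcam1 fell from 279 to 34 and 49.6 to 4.17 FPKM, beside the chemokines already described.

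All 22 integrated stress response genes tested rose, with a median of 2.22. This programme, run by ATF4, raises amino acid synthesis and uptake. Trib3, a pseudokinase target of ATF4 and CHOP, stood at 2.22, 1.47 and 1.85 FPKM on day 0 and 144, 134 and 134 FPKM on day 4, a 74.4-fold rise (log2 fold change 5.61, SE 0.16, adjusted p = 1.18e-12). Mthfd2, an enzyme of mitochondrial folate metabolism, rose 14.4-fold and Chac1, which degrades glutathione, 21.2-fold. Asns and Phgdh, for asparagine and serine synthesis, went from 24.9 to 166 and 25.8 to 151 FPKM, and Atf4 itself from 152 to 341 FPKM. Gdf15 was called with overlapping ranges, at 18.1, 23.4 and 14.4 FPKM on day 0 and 26.5, 23.3 and 28.8 FPKM on day 4 (adjusted p = 0.0368). The unfolded protein response split: of 23 genes tested, 11 rose and 10 fell, with a median of -0.04. Over all genes tested, 36.5% were called higher and 36.0% lower. Ero1l, the oxidase that makes disulfide bonds, stood at 16.9, 19.1 and 20.8 FPKM on day 0 and 506, 786 and 768 FPKM on day 4, a 36.3-fold rise. Day 4 library 1 was the lowest of its group, still far above day 0. Pdia3 and Calr, glycoprotein folding chaperones, fell 2.96-fold and 2.21-fold, and Hspa5, encoding the sensor chaperone BiP, stood at 317 and 308 FPKM without a call.

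Of 27 antioxidant and cysteine genes tested, 17 rose and 7 fell, with a median of 0.39. The shares over all genes tested were 36.5% higher and 36.0% lower. Cdo1 rose 119.7-fold, from 6.73, 4.77 and 5.28 FPKM to 712, 652 and 644 FPKM, and Cat, encoding catalase, rose 5.03-fold. Sod1 went from 481 to 1259.5 FPKM, and Sod3, the secreted form, fell 2.78-fold. Of 18 hypoxia-responsive genes tested, 12 rose and 5 fell, with a median of 0.78. Egln3 reached 11.5, 15.4 and 14.5 FPKM from at most 0.335, and Bnip3 rose 6.8-fold, while Hif1a itself fell 3.63-fold, from 62.8, 58.1 and 67.6 FPKM to 14.1, 18.6 and 19.2 FPKM. Adm, a target of HIF, fell 3.31-fold.

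Of 29 histone acetyltransferases, deacetylases and sirtuins tested, which use or remove acetyl groups, 13 were higher and 12 lower, with a median of -0.06. Over all genes tested, 36.5% were called higher and 36.0% lower, so this list moved much as genes in general did. Ncoa1 rose 5.66-fold and Sirt3, the mitochondrial sirtuin, 3.77-fold, while Hdac1 fell 2.07-fold. Of 23 lysosome and autophagy genes tested, 6 rose and 12 fell, with a median of -0.21. Tfeb, the lysosomal master regulator, rose 3.6-fold, whereas Lamp2 fell 1.87-fold.

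Markers of the labelled cell types came next. Of 12 adipocyte markers, 11 were tested and all rose, with a median of 6.43, and Lep was at the floor. Plin1, Cidec, Slc2a4, Adrb3, Retn and Gpd1 reached the level required for testing through day 4 libraries alone, so they could only be called higher. The summed FPKM of the 12 markers was 511.5 to 527.5 on day 0, most of it Fabp4, and 11520 to 12090 on day 4. Of 9 preadipocyte markers, 4 were tested and all fell, and the sum went from 673 to 775 FPKM down to 143 to 211 FPKM, the highest being day 4 library 1. Of 14 macrophage and leukocyte markers, Cd14 alone was tested and it fell, while Ptprc, Adgre1, Itgam, C1qa and Tyrobp were at the floor, and the list's sum was 3.37 to 5.45 FPKM on day 0 and 1.3 to 1.76 FPKM on day 4. Of 10 endothelial markers, Egfl7 and Kdr were tested, Cdh5, Tie1, Cldn5 and Erg were at the floor, and the sum was 5.26 to 5.42 and 4.44 to 7.16 FPKM. Of 9 mesothelial and epithelial markers with values, Krt19 was tested and fell, and Msln, Wt1, Krt8, Krt18 and Cdh1 were at the floor, with sums of 1.65 to 2.35 and 0.447 to 0.718 FPKM. Skeletal muscle markers summed to 2.1 to 2.36 and then 3.34 to 4.44 FPKM, with Myod1, Myog, Pax7 and Ckm at the floor. Acta1 and Des were tested and both rose, from 1.06 to 2.39 and from 0.297 to 1.26 FPKM. Bone and cartilage markers fell in 4 of 5 members tested, with sums of 20.05 to 22.15 and 9.33 to 10.4 FPKM. Of 8 smooth muscle and pericyte markers, 4 were tested, 2 rose and 2 fell, and the sum went from 8.78 to 9.35 FPKM to 27.3 to 29.8 FPKM. Most of that lay in Mcam, from 0.395, 0.484 and 0.414 FPKM to 19.9, 19 and 19.4 FPKM, and Myh11, from 0.105, 0.186 and 0.0582 FPKM to 7.67, 6.68 and 6.53 FPKM, while Lmod1 and Notch3 fell and Kcnj8 was at the floor. Its part in the results above was not tested.

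The same interval in Acly-/- cells gave 7232 called genes, of which 1535 changed at least 2-fold, against 2766 with Acly intact. The difference between the 2 intervals, tested as an interaction in limma, was called in 5908 genes (50.2%). Among the 1510 genes that rose at least 2-fold in Aclyf/f cells, 1157 rose more than in Acly-/- cells by that test and 63 rose less, and among the 1256 that fell at least 2-fold, 939 fell more and 45 fell less. Thrsp, Fasn, Trib3, Cox7a1, Retn and Cfd differed most among the named genes, and Cebpd rose less with Acly intact. Genes in both sets were picked by their change in Aclyf/f cells, which is also a term of the interaction, so these counts are a description. In Acly-/- cells the summed preadipocyte markers stood at 873.9 to 1205 FPKM on day 0 and 708.6 to 752.5 FPKM on day 4, and estimated relative depth was 1.03 to 1.87 and 1.27 to 1.55. The part of either in the difference was not tested.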

How the data were processed

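RNA was extracted with Trizol and sequenced as TruSeq libraries, per the labels' protocols, from 12 samples in 4 groups of 3, of which the 6 Aclyf/f libraries are described. Values are FPKM per gene, made by the authors with bcl2fastq, Bowtie2 2.2.6 and Cufflinks 2.2.1 on mm10, per the submitters' processing notes, and deposited as 1 table of 24341 genes. Counts were not used here, so relative depth was estimated from the steps between low FPKM values.

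The test took genes that reached 1 FPKM in 3 or more of the 12 libraries. A gene that passed only through its day 4 Aclyf/f libraries could only be called higher, and one that passed only through day 0 only lower. List counts of rises and falls depend in part on this filter. The test ran on log2(FPKM + 1), which understates changes of low genes, with limma 3.58.1 in R 4.3.3. The fit had 4 group means over all 12 libraries and a trend of the variance, p-values were adjusted by Benjamini-Hochberg over the 11777 genes, and genes at an adjusted p under 0.05 were called. The interaction tested the difference between genotypes. Folds quoted for single genes are ratios of mean FPKM. Counts of genes changed at least 2-fold or 8-fold were cut on the log2(FPKM + 1) scale instead. They leave out some low genes whose ratio of mean FPKM is larger. The procedure was tested on simulated data. Summaries used pandas 2.3.3 and numpy 2.4.6 under Python 3.11.15, and plots matplotlib 3.10.9.

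Named genes were the 15 largest rises and falls among called genes with at least 5 FPKM and no overlap, up to 3 rises and 3 falls of each list, a set of core genes, and the 10 highest genes that switched on or off. Other list members are named as examples, chosen after their values were seen, and a few genes are not reported here. The members and the lists were chosen with earlier results of these data known. Alternatives were other pseudocounts, filters and scalings, the 6 Aclyf/f libraries alone, no variance trend, a replicate block, a required fold of 1.5, and each library left out. Replicate numbers were not treated as pairs in the main fit.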

Additional observations from a re-analysis of the deposited data

Results flagged for a closer look

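For some genes chosen by the naming rule or named above, the change from day 0 to day 4 differed between genotypes by more than 2-fold in limma's treat test of the interaction at an adjusted p under 0.05. The values below are the log2 fold change in Aclyf/f cells minus that in Acly-/- cells. A positive value is a larger rise or a smaller fall with Acly intact, or a rise there against a fall in Acly-/- cells. Some genes did move in opposite directions. Ldha had a log2 fold change of 1.38 in Aclyf/f and -0.96 in Acly-/- cells, and Postn one of -0.44 and 1.54. The contrast uses 3 libraries in each of 4 groups, and the part of the marker sums and depths given above was not tested.

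Among fat synthesis genes the difference was 5.40 for Thrsp, 4.45 for Fasn, 3.64 for Acss2, 3.16 for Mlxipl, 3.08 for Scd1, 3.08 for Acly, 2.89 for Acaca, 2.57 for Slc25a1, 1.97 for Scd3, 1.56 for Srebf1 and 1.36 for Me1. Acly is the gene deleted in the comparison cells, so its difference was built into the design. For triglyceride genes it was 3.97 for Gpd1, 1.99 for Dgat2, 1.66 for Agpat2 and 1.39 for Dgat1. For lipolysis genes it was 2.18 for Lipe, 2.00 for Adora1, 1.73 for Pnpla2 and 1.68 for Adrb3.

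Secreted and other fat cell genes gave 4.07 for Retn, 4.00 for Cfd, 3.97 for Rbp4, 3.81 for Car3, 3.08 for Adipoq, 2.86 for Slc2a4, 2.70 for Adig and 2.19 for Orm1. The cholesterol genes gave 3.11 for Pmvk, 2.88 for Mvd, 2.30 for Insig1 and 1.51 for Sqle. Of the genes given here with a positive value, Slc16a3 was not called in Aclyf/f cells themselves.

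Glycolysis and hypoxia genes gave 3.87 for Egln3, 3.28 for Aldoc, 2.86 for Pdk1, 2.36 for Slc16a3, 2.34 for Ldha, 2.30 for Bnip3, 1.72 for Gapdh, 1.51 for Pfkfb3 and 1.503 for Pfkfb1. Taldo1, of the pentose phosphate pathway, gave 1.502. Mitochondrial genes gave 4.27 for Cox7a1, 2.15 for Ehhadh, 1.85 for Pcx, 1.76 for Pdhb, 1.52 for Hibch and 1.34 for Cs. Stress response genes gave 4.43 for Trib3, 3.12 for Ero1l, 2.64 for Mthfd2, 2.46 for Chac1, 2.16 for Asns, 2.01 for Phgdh and 1.57 for Herpud1. Mean day 0 levels of Trib3, Mthfd2, Chac1, Asns and Phgdh were 46.3, 114, 8.79, 128 and 117 FPKM in Acly-/- cells. In Aclyf/f cells they were 1.84, 24, 1.33, 24.9 and 25.8 FPKM. On day 4 the means were 105, 254, 20.8, 185 and 163 FPKM in Acly-/- and 137, 344, 28.3, 166 and 151 FPKM in Aclyf/f cells. Clock, immune, matrix and other genes gave 3.57 for Igfbp4, 2.96 for Mcam, 2.75 for Lama4, 2.23 for Psmb9, 1.85 for Tap1, 1.66 for Nt5e, 1.61 for Dbp and 1.55 for Per3.

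Negative values were largest in size for Igfbp5 at -3.51, Cxcl12 at -3.27, Nov at -3.06, Acta2 at -2.99 and Myl9 at -2.77. Matrix and contractile genes also gave -2.71 for Timp2, -2.68 for Mmp14, -2.45 for Fbln7, -2.07 for Vcan, -1.99 for Postn, -1.87 for Ctgf, -1.74 for Lox, -1.73 for Lmod1, -1.62 for Ltbp1 and -1.59 for Tpm1. Chemokine, receptor and signal genes gave -2.44 for Ccl2, -2.13 for Ccl8, -2.09 for Il1rl1, -1.86 for Ccl7, -1.79 for Vcam1, -1.78 for Pdgfra, -1.76 for Plxdc2, -1.98 for Sfrp4, -1.67 for Sfrp1 and -1.90 for Grem1. The others were Aldh1a2 at -2.38, Ccng1 at -1.63 and S100a4 at -1.53. Cebpd, which rose in Aclyf/f cells, gave -2.33, the sole negative value among the genes called higher.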

How the results depend on the processing

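The count of 8537 called genes ranged from 7105 with a filter of 5 FPKM to 9373 with no filter, and was 8054 to 8236 without 1 library, with 4045 to 4168 higher and 3992 to 4069 lower. At 2-fold or more it was 1484 to 1534 higher and 1249 to 1272 lower without 1 library. A required fold of 1.5 left 3407 calls, 1828 higher and 1579 lower, because small changes are then not called. The genotype difference was called in 5310 to 5831 genes without 1 library, and the log2 fold change of Acly was 3.04 to 3.13. Of 5443 values recomputed for 321 named genes, 5323 kept direction and call, 104 lost the call, 57 of them with the required fold, 3 gained one and 13 changed sign. The sign changes were in genes that were not called and the cause was not tested: Slc2a1 was 0.0055 with equal FPKM sums, Dusp1 was -0.038 with quantile normalization and -0.0053 with median-of-ratios rescaling, and without 1 library Slc2a1 ranged from -0.033 to 0.036, Clock from -0.087 to 0.099, Dusp1 from -0.123 to 0.095, Lnpep from -0.189 to 0.0497 and Gyk from -0.143 to 0.052. Replicate numbers were not treated as pairs in the main fit. Deviations of same-numbered libraries correlated at 0.135, -0.03 and 0.09, and those of other pairs at -0.144 to 0.089. Not every library correlated best with its own number, and with 3 libraries a day this cannot settle whether they were paired. The fit with a replicate block called 8352 genes, 8320 of them shared. Depth limits what can be said of genes under 0.3 FPKM, and their part in the list counts was not tested.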
